A study of Rattus norvegicus with 12 samples.

Results

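The comparison is thermal injury against sham in rats 4 days after the injury. It holds the 3 samples whose titles give day 4, out of 12 in the study, which also sampled days 1, 2 and 7. Each sample is a pair, a sham rat signal given as channel 1 and a thermally injured rat signal given as channel 2, on the Affymetrix RAE230A rat array. Strain, age, sex, burn size and tissue are not given in the labels, which also do not say how many animals the 3 samples stand for. A p-value here therefore measures only the spread between samples, which may be technical. Each value is a log2 ratio relative to the median of its array. Which signal was divided by which is not stated in the sources used here. Injury over sham is likely, because injury is channel 2, so a value above 0 is read as more RNA in the injured rats, and every direction depends on that reading. In whole tissue, fewer cells of a type and less RNA per cell cannot be told apart.

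A large burn is followed by days of raised metabolic rate, stress hormone release and cytokine signalling. The liver answers with the acute-phase response, in which secreted defence proteins are made in place of carrier proteins, and with changes in lipid, glucose and amino acid handling. Cholesterol is made from acetyl-CoA in a chain of enzymes whose genes share a transcription factor, SREBP-2, and the cofactor NF-Y, which binds the letters CCAAT. Mitochondrial energy production rests on large assemblies of the inner membrane, the respiratory chain complexes and the ATP synthase.

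No gene of the 10411 tested passed an adjusted p of 0.05 at day 4 in limma's moderated test with Benjamini-Hochberg adjustment (percent called 0.0), so what follows describes levels that lay above or below 0 and names no gene as changed. At an unadjusted p under 0.05, 508 genes lay above 0, or 4.88% of those tested, and 409 lay below 0, or 3.93%. Of all genes, 18.3% were above 0 in all 3 samples and 16.2% were below 0 in all 3. By their mean, 51.0% of all genes lay above 0 and 49.0% below, and every list count above or below 0 is to be read beside these shares. Of the probe sets, 0 of 15866 passed (0.0%). The groups described at most length are the enzymes of cholesterol synthesis below 0, the subunits of the respiratory chain and of both kinds of ribosome slightly above 0, and the digestive enzymes of the pancreas far above 0 in sample 2 and sample 3.

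The identifiers of day 4 named the same probe sets as those of days 2 and 7. The rank correlation of the array signals recovered from the ratios was 0.682 to 0.706 among day 4 samples, 0.672 to 0.695 with day 2, 0.664 to 0.703 with day 7, and -0.000798 to 0.0149 with day 1, so day 1 was left out. The ratios themselves repeated weakly. Across probe sets, which do not count as replicates, Pearson's r was 0.141 between samples 1 and 2, 0.0251 between samples 1 and 3, and 0.0742 between samples 2 and 3. The array's own check of RNA ends, the log2 ratio at the 3′ probe set of actin minus that at the 5′ one, gave -0.35, 0.38 and 0.23 for the day 4 samples and -0.88, -0.44 and -0.88 at day 7. Among marker genes, 1 of 19 hepatocyte probe sets lay among the dimmest 5288 probe sets, against 13 of 15 for kidney, 11 of 21 for smooth and skeletal muscle, 10 of 14 for skin and 14 of 15 for the endocrine pancreas. Hepatocyte markers were not alone in being bright, with 0 of 14 dim for macrophages, 1 of 6 for bile duct, 3 of 11 for endothelium and 7 of 17 for intestine and stomach.

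The 2 genes closest to the threshold lay in opposite directions. Pnliprp1 encodes a pancreatic protein related to lipase, and it was at 2.75, 2.62 and 2.12 in samples 1, 2 and 3. All 3 samples were high, and the mean of 2.50 ± 0.33 (SD, n = 3) is 5.65-fold, with a limma adjusted p of 0.0818. Zfp37, a zinc finger protein of the KRAB family, was at -3.09, -4.34 and -3.43, with a mean of -3.62 ± 0.65 and the same adjusted p of 0.0818. The recovered numbers for Zfp37 were low on the injury side in each pair, at 37 against 321, 61 against 1252 and 23 against 259. These numbers are whole-number signals in lowest terms, so only their ratio is exact.

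Of the 10 genes of smallest p above 0, 5 belong to the exocrine pancreas, which are Pnliprp1, Cpa1, Pla2g1b, Pnliprp2 and Bhlha15. Igfbp1, a liver-secreted binding protein of insulin-like growth factors that insulin represses, was at 2.81, 2.47 and 1.43. Its 3 samples were all high, and its mean of 2.24 ± 0.72 stood beside a day 2 mean of 2.34 and a day 7 mean of -0.63. Fzd6, a Wnt receptor, had a mean of 1.69 ± 0.22, Igsf8, a cell surface protein that binds tetraspanins, had 1.31 ± 0.55, Fip1l1, a subunit of the polyadenylation machinery, had 1.12 ± 0.48, and Cabs1, a calcium-binding protein of spermatids, had 1.13 ± 0.12.

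Below 0 the genes of smallest p were led after Zfp37 by Cdk1, the kinase that drives entry into mitosis, at -1.91, -1.10 and -1.37. Every sample was low, around a mean of -1.46 ± 0.41, and Cdkn3, a phosphatase that acts on cyclin-dependent kinases, was at -3.11, -2.56 and -1.08. Cdkn3 was as low at day 2, with a mean of -2.52, and near 0 at day 7, with 0.03. Epo, the hormone of red cell formation, had a mean of -1.41 ± 0.23, with recovered numbers as small as 5 against 12 in sample 2. Rcan1, an inhibitor of calcineurin, was at -0.97 ± 0.32, Map2k6, a kinase that activates p38, at -1.07 ± 0.46, Hyal3, of the hyaluronidase family, at -1.11 ± 0.26, and Bag6, a chaperone for membrane proteins, at -0.93 ± 0.46. Lss and Sqle, both of sterol synthesis, complete these 10. All adjusted p were between 0.0818 and 0.408, and 12 of the 20 genes lay below the brightness limit that marks the dimmest 5288 probe sets, 7 of those above 0 and 5 of those below, against 29.3% of all genes. Brightness is scored on the smaller signal of each pair, so a large ratio in either direction can itself lower it.

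**Figure D1:**
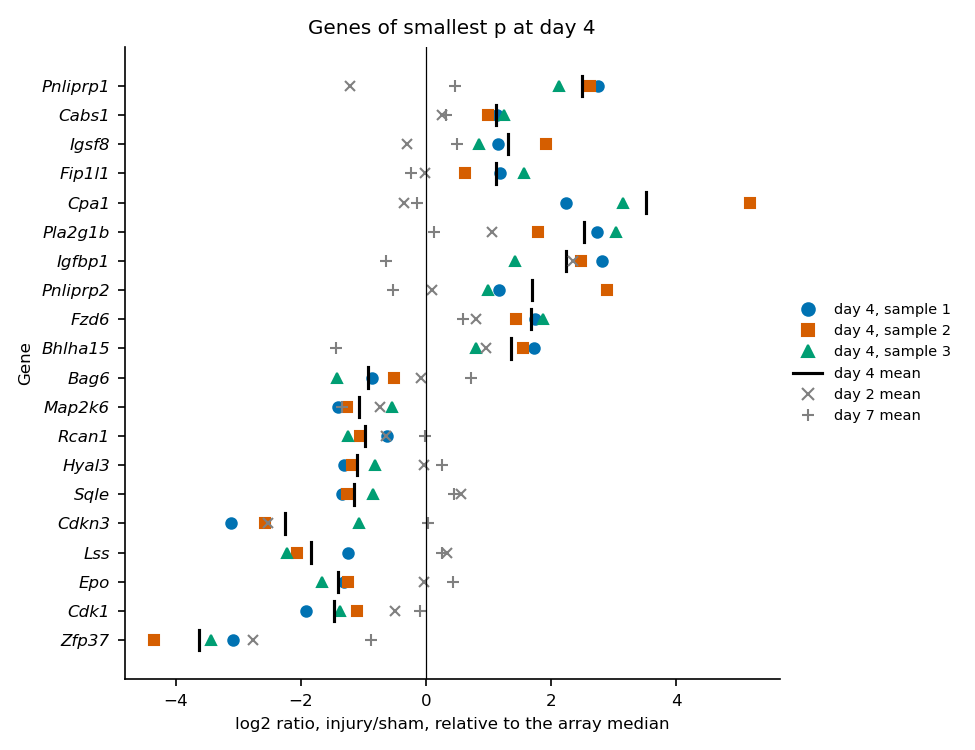
The 10 genes above 0 and the 10 below 0 of smallest p at day 4. The x axis gives the log2 ratio relative to the array median, coloured symbols are the 3 day 4 samples, black bars their mean, and grey crosses the day 2 and day 7 means. The 3 day 4 samples lie on 1 side of 0 for each gene, and Cpa1 has the widest spread, from 2.23 to 5.18.

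Cholesterol synthesis lay below 0 at day 4 in most of its enzymes. Of 17 measured enzymes, 15 lay below 0, against 49.0% of all genes, 10 lay below 0 in all 3 samples, against 16.2%, and 7 had an unadjusted p under 0.05, against 3.93%. The median over the list was -0.33, at -0.51, -0.38 and -0.29 in samples 1, 2 and 3, beside a median of 0.01 over all genes. The values of the enzymes are given below after the promoter sequences of 4 of them, which are shown because NF-Y is a known cofactor at genes of this pathway. The 250 bases before the RefSeq start (build GRCr8, 5′ to 3′ on the gene's strand) are printed with each match to CCAAT, read on both strands and so also as ATTGG, in capitals. Lss lies at chr20:12118231-12118480 on the minus strand, Msmo1 at chr16:29746863-29747112 on the plus strand, Idi1 at chr17:66547525-66547774 on the minus strand and Mvk at chr12:47819504-47819753 on the minus strand.
Lss: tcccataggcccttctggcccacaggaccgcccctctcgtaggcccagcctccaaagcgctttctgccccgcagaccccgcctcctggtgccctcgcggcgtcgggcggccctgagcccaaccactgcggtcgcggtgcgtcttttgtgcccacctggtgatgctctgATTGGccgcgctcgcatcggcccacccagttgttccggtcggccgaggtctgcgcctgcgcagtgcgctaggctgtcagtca
Msmo1: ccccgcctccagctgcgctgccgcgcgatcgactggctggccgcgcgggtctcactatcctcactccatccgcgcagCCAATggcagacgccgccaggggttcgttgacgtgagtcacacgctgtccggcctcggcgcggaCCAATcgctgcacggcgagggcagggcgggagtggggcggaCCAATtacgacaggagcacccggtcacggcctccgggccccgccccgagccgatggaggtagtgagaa
Idi1: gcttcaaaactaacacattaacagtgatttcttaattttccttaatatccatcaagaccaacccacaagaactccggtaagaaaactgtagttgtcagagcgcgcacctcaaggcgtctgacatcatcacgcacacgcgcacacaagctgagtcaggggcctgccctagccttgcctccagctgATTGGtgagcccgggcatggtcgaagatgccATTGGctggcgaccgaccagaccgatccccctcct
Mvk: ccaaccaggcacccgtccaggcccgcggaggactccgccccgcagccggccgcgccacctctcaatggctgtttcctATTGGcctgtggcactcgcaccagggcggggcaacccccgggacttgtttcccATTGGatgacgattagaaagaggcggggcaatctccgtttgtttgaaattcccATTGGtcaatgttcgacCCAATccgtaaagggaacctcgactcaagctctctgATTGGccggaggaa
Lss held 1 match, Idi1 2, Msmo1 3 and Mvk 5. Of 14 promoters of the list in the table, 11 held CCAAT (78.6%), against 34.0% of all 33469 promoters of this length and 35.4% of those of genes tested. Of 15 promoters of the clock list described further on, 10 held it too (66.7%). The sterol element, searched on both strands in 1 fixed form of 10 letters, was in 0 of these 14 windows and in 35 of the 33469 (0.105%), of which 0 were among the 8630 genes tested that have a promoter in the table. A match describes letters only, and no match says only that these letters are not in this window.

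In the mevalonate arm, which leads from acetyl-CoA to squalene, 6 of 7 enzymes lay below 0. Fdft1, squalene synthase, was at -0.68, -0.49 and -0.65, with the 3 samples close together and a mean of -0.61 ± 0.10. Idi1, which isomerises isopentenyl diphosphate, was at -0.68, -1.07 and -0.99. Its mean was -0.92 ± 0.21, with its 2 probe sets at -0.54 and -1.30. Acat2, the first thiolase, was at -0.32, -0.68 and -0.60, with a mean of -0.53 ± 0.19. Mvk and Pmvk, the consecutive kinases of mevalonate, lay near 0 in every sample, with means of -0.04 ± 0.13 and 0.07 ± 0.06. The probe sets of Mvk were at -0.11, -0.23 and 0.23, and the one above 0 was among the dimmest. Mvd, which decarboxylates the product, had a mean of -0.28 ± 0.25 and Fdps, which joins the isoprenoid units, had -0.29 ± 0.38.

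In the sterol arm, 9 of 10 enzymes lay below 0. Lss, lanosterol synthase, which closes the sterol rings, was at -1.24, -2.07 and -2.22, and its mean of -1.84 ± 0.53 is 3.59-fold lower on the injury side, with an adjusted p of 0.285. All 3 samples were low at both probe sets, which had means of -2.78 and -0.90. The recovered numbers of the first were 525 against 1796, 249 against 2602 and 218 against 2141. Sqle, squalene epoxidase, a rate-limiting step, was at -1.34, -1.27 and -0.85, with recovered numbers of 4325 against 11161, 3864 against 9437 and 2298 against 4327. Its mean of -1.15 ± 0.26 is 2.22-fold lower, with an adjusted p of 0.387. Msmo1, which removes methyl groups from the ring, was at -1.38, -0.82 and -0.75, with a mean of -0.98 ± 0.35. The other enzymes of this arm, before and after Msmo1 in the pathway, were nearer 0. Hsd17b7 had a mean of -0.50 ± 0.22, Dhcr7, the last reductase, -0.42 ± 0.14, Cyp51, the first demethylase, -0.33 ± 0.16 and Sc5d -0.31 ± 0.33. Nsdhl at -0.16 ± 0.29 and Tm7sf2 at -0.08 ± 0.17 had samples on both sides of 0, and Ebp, the sterol isomerase, was above 0 in all 3 samples, with a mean of 0.12 ± 0.04.

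Set beside day 2, all 17 enzymes had a lower mean at day 4. For 11 of them every day 4 sample lay below every day 2 sample, against 7.03% of all genes, and 10 had an unadjusted p under 0.05 for the difference, against 3.95%. Sqle was at 0.62, 0.32 and 0.72 at day 2, above each of its day 4 values, a difference of -1.71 ± 0.29 (SE) with an adjusted p of 0.477. Ebp, above 0 on both days, had a day 2 mean of 0.72. Against day 7, 5 of 17 enzymes did not overlap and lay lower at day 4, against 8.58% of all genes. The day 7 samples did not lie together, with list medians of 0.31, -0.43 and -0.09. Leaving out sample 1, 2 or 3 of day 4 left 14 of 17 enzymes below 0 each time.

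**Figure D2:**
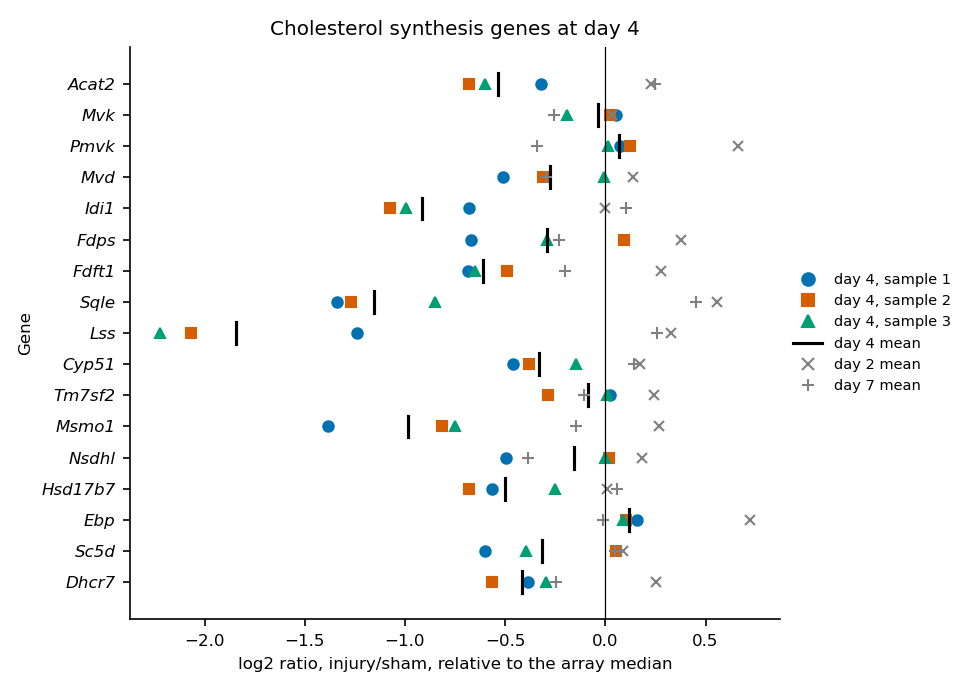
The 17 measured enzymes of cholesterol synthesis in pathway order, from Acat2 at the top to Dhcr7. The x axis is the log2 ratio relative to the array median, coloured symbols are the 3 day 4 samples, black bars their mean, and grey crosses the day 2 and day 7 means. Lss, Sqle, Msmo1 and Idi1 lie furthest to the left, and Mvk, Pmvk and Ebp lie near 0.

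The genes that regulate this pathway did not form such a group. Of 16 regulators and sterol-responsive genes of uptake and export, 7 lay above 0, against 51.0% of all genes, with a median of -0.08. At an unadjusted p under 0.05 in limma there were 0, against 4.88% of all genes above 0 and 3.93% below. With 16 genes, a count of 0 is near those shares. Srebf2, which encodes SREBP-2 itself, was at -0.79, -0.65 and 0.55, and Insig1, which holds SREBP in the endoplasmic reticulum and is itself a target, was at -1.23, -0.57 and 0.34. Both were low in samples 1 and 2 and high in sample 3. Scarb1, the receptor for high-density lipoprotein, had a mean of -0.39 ± 0.39. Apob, the structural protein of very low density lipoprotein, was at -0.40, -0.44 and -0.42 at day 4, with means of 0.70 at day 2 and 0.86 at day 7. Its 2 probe sets had day 4 means of -0.80 and -0.04. The first was at 1.28 at day 2 and 1.56 at day 7, and the second stayed near 0 at 0.12 and 0.17.

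Fatty acid and triglyceride synthesis also had a median below 0, with a less uniform direction. Of 24 genes, 11 lay above 0, near the 51.0% of all genes, and 12 lay below 0 in all 3 samples, against 16.2%. The median was -0.16, or -0.097 without sample 1, and 3 lay below 0 at an unadjusted p under 0.05 in limma, against 3.93%. Acacb, the acetyl-CoA carboxylase that restrains fatty acid oxidation, was at -0.82, -0.67 and -1.03. Its samples were all low, with a mean of -0.84 ± 0.18, while its means were 0.90 at day 2 and 1.11 at day 7. Elovl5, an elongase, had -0.49 ± 0.33, and Mlxipl, the transcription factor ChREBP, had -0.38 ± 0.17. Elovl6, another elongase, was at -2.84, -0.51 and -0.11, with sample 1 far below the other two and a mean of -1.15 ± 1.48. Dgat1, which makes triglyceride, had 0.29 ± 0.20. At day 2 the list median was 0.31, and 8 of 24 genes lay lower at day 4 without overlap, against 7.03%.

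The subunits of the respiratory chain and ATP synthase lay slightly above 0. Of 73 measured, 68 lay above 0, against 51.0% of all genes, 59 were above 0 in all 3 samples, against 18.3%, and 27 had an unadjusted p under 0.05, against 4.88%. The list median was 0.32, at 0.38, 0.30 and 0.34 in samples 1, 2 and 3. By assembly, 32 of 35 subunits of complex I, the NADH dehydrogenase, lay above 0, with a median of 0.41 and 19 of the 27 small p. Complex II, succinate dehydrogenase, had 4 of 4 and a median of 0.20. Complex III, which hands electrons to cytochrome c, had 7 of 8 and 0.25, complex IV, cytochrome c oxidase, 10 of 11 and 0.29, and ATP synthase with its regulators 15 of 15 and 0.30.

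Within complex I, Ndufa7 was at 0.46, 0.69 and 0.50, Ndufa2 at 0.70, 0.57 and 0.81, and Ndufs6 at 0.83, 0.62 and 0.41. In each of these accessory subunits the 3 samples lay above 0, and the means were 0.55 ± 0.12, 0.69 ± 0.12 and 0.62 ± 0.21, with adjusted p between 0.408 and 0.433. Atp5if1, the inhibitor of ATP synthase, had the highest mean of the list, 1.83 ± 0.63, but its 3 probe sets disagreed, at 0.36, 2.05 and 3.06. Cox7a1, the muscle form of a complex IV subunit, went the other way at 0.02, -2.01 and -2.13, with a mean of -1.37 ± 1.21. In the tricarboxylic acid cycle, which feeds the chain, 14 of 16 genes lay above 0 with a median of 0.16, among them Sucla2 at 0.35 ± 0.08 and Mdh2 at 0.24 ± 0.03. Cs, citrate synthase, the entry enzyme of that cycle, was below 0 at -0.40, -0.42 and -0.35.

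Against day 7, 71 of 73 respiratory chain subunits had a higher mean at day 4, and 55 did not overlap, against 11.1% of all genes. At day 7 the list median was -0.28, and all 3 samples were below 0, at -0.06, -0.29 and -0.52. Ndufa7 was at -0.82, -0.71 and -0.62 at day 7, a difference of 1.27 ± 0.16 (SE) with an adjusted p of 0.162. Against day 2, 27 subunits lay higher without overlap, against 7.38%. The 3′ minus 5′ value of actin, given above, was also higher at day 4 than at day 7 in each sample, and that of GAPDH was 0.14, 0.31 and -0.08 against -0.39, -0.21 and -0.80. The part of RNA ends in the result was not tested.

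The parts of both ribosomes lay above 0 in the same way. Of 63 mitochondrial ribosomal proteins, 59 lay above 0, against 51.0% of all genes, and 45 were above 0 in all 3 samples, against 18.3%, with a median of 0.30 at 0.31, 0.29 and 0.28. Mrpl27, of the large subunit, was at 0.66, 0.61 and 0.66, and Mrps35, of the small subunit, at 0.45, 0.50 and 0.45. Both varied little between samples. Mrps28 had a mean of 0.68 ± 0.26 and Mrps23 of 0.41 ± 0.10, and Mrps14 was at -0.10 ± 0.20. At day 7 the list median was -0.17, and 31 of 63 genes lay higher at day 4 without overlap, against 11.1%.

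Of 40 cytosolic ribosomal proteins, 37 lay above 0, against 51.0% of all genes, 32 in all 3 samples, against 18.3%, and 16 had an unadjusted p under 0.05, against 4.88%. Their median was 0.31. The small subunit had 12 of 12 above 0 and the large subunit 25 of 28. Rps28 was at 0.74, 0.75 and 0.41, Rpl35a at 0.83, 0.80 and 0.18, and Rps15 at 0.75, 0.51 and 0.28. Each was lowest in sample 3. Rpl37a was at 1.73, 1.32 and -0.05, and Rpl39 was below 0 in all samples, with a mean of -0.13 ± 0.10. Ribosomal proteins have many processed pseudogenes, so these probe sets can share signal with copies. Of 28 translation factors, 21 lay above 0, against 51.0% of all genes, among them the initiation factor subunit Eif3k at 0.51 ± 0.25. Their median was 0.14, or 0.043 without sample 2.

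The proteasome, which degrades tagged proteins, had 32 of 35 subunits above 0, against 51.0% of all genes, 19 in all 3 samples, against 18.3%, and 5 with an unadjusted p under 0.05, against 4.88%. The median was 0.22. Its samples were at 0.24, 0.32 and 0.12. Psmb4, of the catalytic ring, was at 0.63, 0.86 and 0.19, and Psma1, of the outer ring, at 0.33, 0.83 and 0.38. Psme2, an activator subunit that interferon induces, was at 0.40 ± 0.09, and Psmd4, a ubiquitin receptor of the cap, at 0.34 ± 0.12. Psmd11, of the same cap, was at -0.11 ± 0.09.

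**Figure D3:**
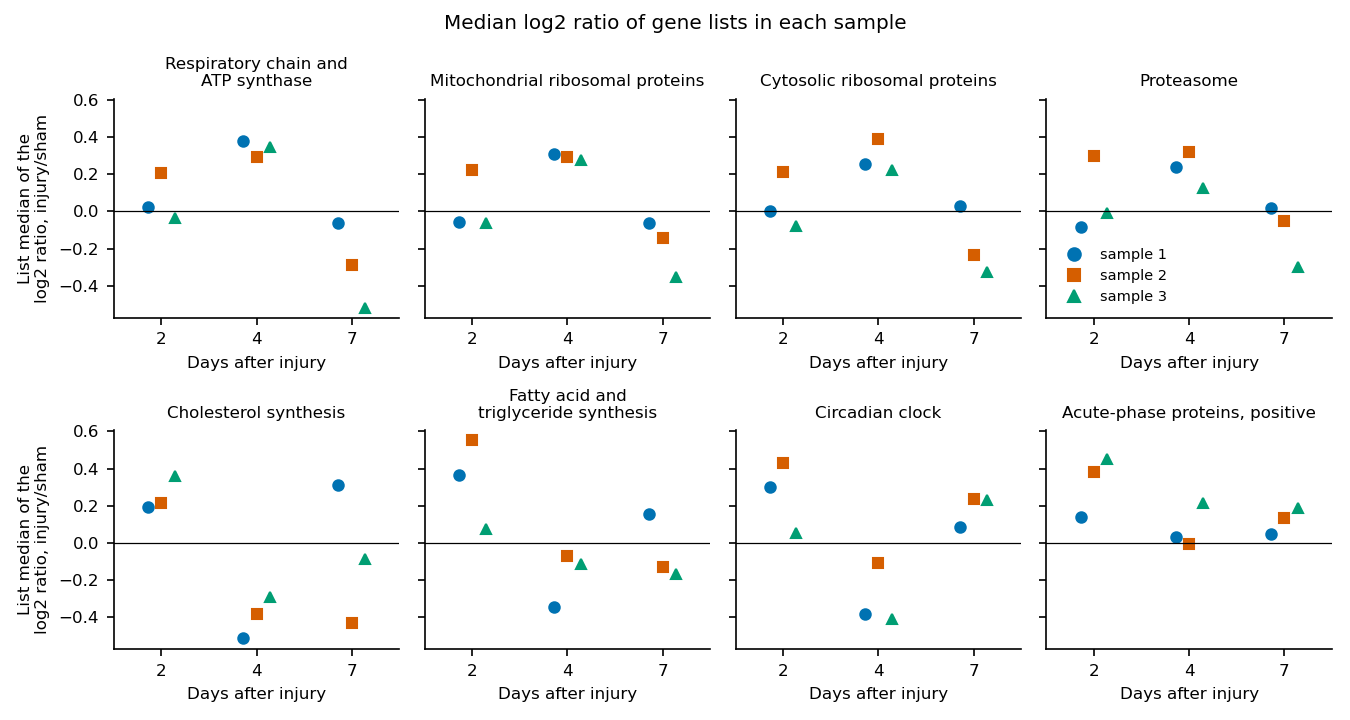
Median log2 ratio over the measured members of 8 gene lists in each sample of days 2, 4 and 7. The x axis is the day and each symbol is 1 sample. The respiratory chain, both ribosomal lists and the proteasome lie above 0 in all 3 day 4 samples, and cholesterol synthesis, fatty acid and triglyceride synthesis and the clock lie below 0 in all 3.

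Genes of the exocrine pancreas held the highest values at day 4. Acinar cells of the pancreas secrete proteases, lipases and amylase, and the factors Ptf1a, Bhlha15 and Nr5a2 drive these genes. Of 33 measured genes, 26 lay above 0, against 51.0% of all genes, and 14 did so in all 3 samples, against 18.3%. At an unadjusted p under 0.05, 14 lay above 0, against 4.88%, and 1 below, against 3.93%. The test pools the spread of days 2, 4 and 7, so p can be too small for genes that varied more at day 4. Prss1, a trypsinogen, had an SD of 1.90 at day 4, against 0.51 at day 2 and 0.42 at day 7. Pnliprp1 went the other way, with 0.33 against 0.45 and 0.71. The list median was 0.86, but the samples differed, at 0.08, 1.79 and 0.73. Without sample 2 it was 0.47, and without the dimmest probe sets it was 0.28. The last setting leaves out probe sets by the smaller signal of each pair, which a large ratio can itself lower. At days 2 and 7 the medians were 0.03 and 0.21. The promoters of Ctrb1, a chymotrypsinogen, and Cela1, an elastase, are shown because both hold the pair of letters that acinar factors bind, CACCTG and TTTCCC (capitals, searched on both strands), with first bases 10 apart. They were chosen after the sequences were seen. They are the 250 bases before the RefSeq start in GRCr8, at chr19:56566979-56567228 and chr7:133665062-133665311, both on the minus strand.
Ctrb1: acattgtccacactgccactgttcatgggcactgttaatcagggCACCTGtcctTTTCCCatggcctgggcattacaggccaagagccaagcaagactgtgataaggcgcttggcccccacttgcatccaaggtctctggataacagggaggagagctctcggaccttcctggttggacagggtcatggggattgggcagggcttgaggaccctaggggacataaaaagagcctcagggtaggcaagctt
Cela1: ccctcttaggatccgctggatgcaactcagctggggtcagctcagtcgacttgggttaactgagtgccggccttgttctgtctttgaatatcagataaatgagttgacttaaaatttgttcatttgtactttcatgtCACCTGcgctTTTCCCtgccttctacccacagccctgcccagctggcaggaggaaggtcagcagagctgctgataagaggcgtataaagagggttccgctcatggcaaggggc
Of 28 promoters of the list in the table, 12 held CACCTG (42.9%), against 15.9% of all promoters, and 12 held TTTCCC (42.9%), against 22.0%. The gene with the first of these windows had one of the higher means at day 4 and the other stayed near 0. Ctrb1 was at 0.69, 4.31 and 1.75, and Cela1 was at 0.10, 0.23 and 0.20.

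Among the proteases, 10 of 11 lay above 0, with a median of 1.40. Cpa1, carboxypeptidase A1, was at 2.23, 5.18 and 3.15, the highest mean of all 10411 genes at 3.52 ± 1.51, with an adjusted p of 0.387. All 3 samples were high, with recovered numbers of 433 against 94, 4403 against 123 and 1135 against 133. Prss3b, a trypsinogen, was at 1.39, 5.11 and 1.67, and Prss1, another, at -0.05, 3.76 and 1.81. Sample 1 was near or below 0 for most of the rest. Cela2a was at -0.25, 3.29 and 1.28, Ctrl at -0.98, 3.01 and 2.18, Cpb1 at -0.45, 1.99 and 1.38, and Ctrc at -0.20, 2.26 and 0.73. Prss2 had the opposite order, at 1.40, -0.73 and -0.35, and Klk1, a kallikrein, was below 0 throughout, with a mean of -0.38 ± 0.38. Trypsinogens are near-identical paralogs whose probe sets can share signal.

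The lipases and amylase lay above 0 in 7 of 7, with a median of 1.96. Amy2a3, pancreatic amylase, was at 0.28, 5.86 and 3.65, with recovered numbers of 121 against 102, 11313 against 197 and 4088 against 339. Pla2g1b, pancreatic phospholipase A2, was at 2.73, 1.79 and 3.04, high in each sample with a mean of 2.52 ± 0.65. Pnliprp2 was at 1.17, 2.89 and 0.99, and Cel, bile salt lipase, at -0.72, 3.58 and 3.03. Pnlip, the main triglyceride lipase, was at -0.43, 2.44 and 0.92, and its cofactor Clps at -0.62, 1.88 and -0.08. Sample 2 was highest for 5 of these 7 genes, the exceptions being Pnliprp1 and Pla2g1b.

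The other secretory genes were mixed, with 8 of 11 above 0 and a median of 0.29. Spink1, the trypsin inhibitor of pancreas that liver also makes in an acute-phase response, was at 1.65, 3.04 and 2.19, and was higher still at day 2, with a mean of 4.28. Its 3 probe sets had day 4 means of 0.35, 3.28 and 3.24, and day 2 means of 0.82, 5.77 and 6.25. The last 2 were among the dimmest probe sets and the first was not, so the height of the gene means rests on dim probe sets. The related Spink1l was at 0.97, 0.67 and 0.59. The regenerating proteins had means of 0.44 for Reg1a, 0.00 for Reg3a, 0.47 for Reg3b and -0.09 for Reg3g. Of the zymogen granule genes, Cuzd1 lay above 0 in all 3 samples, with a mean of 0.86 ± 0.67, and Zg16 had a mean of 0.30, Sycn 0.26 and Gp2 -0.10, and Dbi, a widely expressed acyl-CoA binding protein, was at 0.27 ± 0.13.

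Of 4 acinar transcription factors, 1 lay above 0. Bhlha15, which builds the secretory apparatus, was at 1.72, 1.56 and 0.80, with a day 7 mean of -1.43. Ptf1a was at -0.46, 0.30 and -0.60, and Nr5a2, which liver also uses for bile acid genes, at 0.40, -0.04 and -0.70. Gata4 was below 0 at -0.42, -0.82 and -0.64.

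Recovered numbers are given for the pancreatic enzymes as a description, since they are in lowest terms and only the ratio of each pair is exact. Over 18 probe sets of proteases, lipases and amylase, the median sham number was 473, 297 and 553 in samples 1, 2 and 3, and the median injury number was 617, 3609 and 1711. The injury number exceeded the sham number for 9, 16 and 15 of the 18. At day 2 the median injury numbers were 602.5, 165.5 and 714 against sham medians of 638.5, 291.5 and 542, and at day 7 they were 277.5, 424.5 and 445 against 202.5, 381 and 422.5. Which side is injury rests on the likely order of the ratio. Of 36 probe sets of the list, 21 were among the dimmest 5288. Since brightness takes the smaller signal of each pair, part of that count can come from large ratios and not from weak signal on both sides.

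Markers of the endocrine pancreas were mostly dim, with 14 of 15 endocrine probe sets among the dimmest 5288. Of 15 endocrine pancreas genes, 6 lay above 0, with a median of -0.13. Their sample medians of -0.22, 0.19 and 0.06 were lowest in sample 1 and highest in sample 2, the same order as for the exocrine list. The endocrine median was 0.17 without the dimmest probe sets and 0.049 without sample 1, and Neurod1, an islet transcription factor, was at 2.41, 2.01 and 0.20. Of 5 duct markers shared by bile duct and pancreatic duct, 0 lay above 0, against 51.0% of all genes. Their median was -0.22, or -0.53 without sample 3, with Krt19, a duct keratin, at -2.39, -0.90 and -0.54. The part of pancreatic tissue within the samples was not tested.

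**Figure D4:**
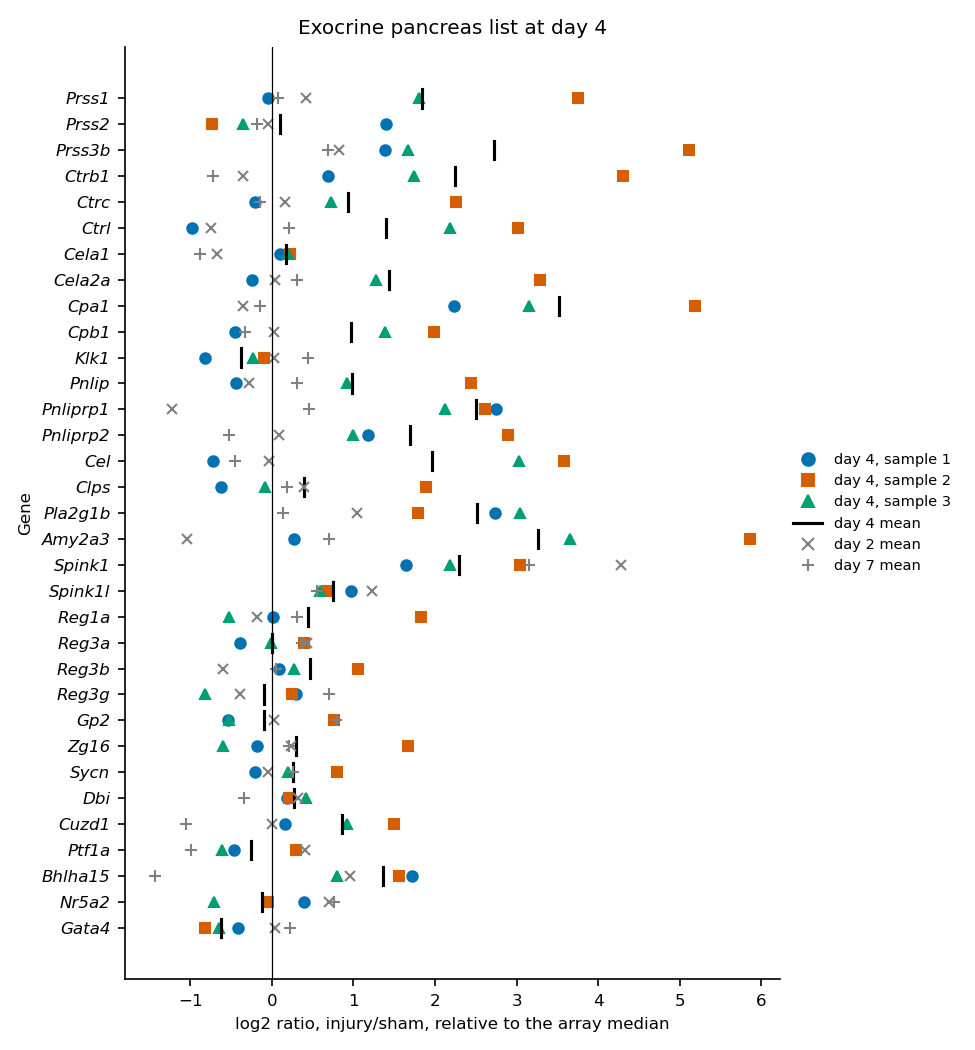
The 33 measured genes of the exocrine pancreas list at day 4. The x axis is the log2 ratio relative to the array median, coloured symbols are the 3 day 4 samples, black bars their mean, and grey crosses the day 2 and day 7 means. Sample 2 lies furthest right for most proteases and lipases, reaching 5.86 for Amy2a3, and sample 1 lies near 0 for many of them.

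**Figure D5:**
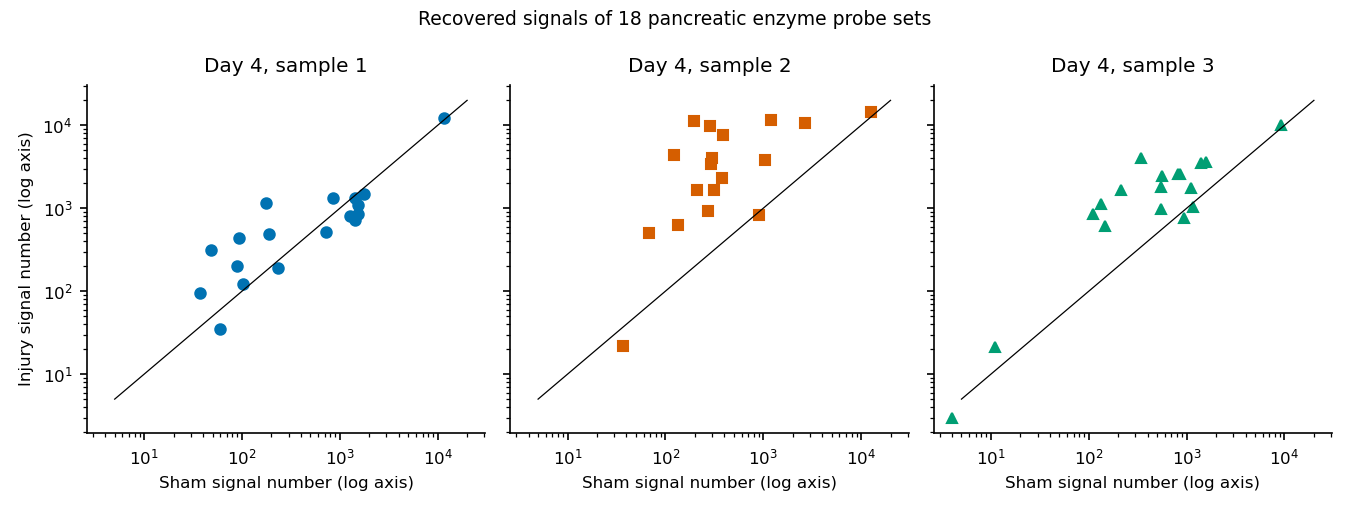
Recovered injury number against recovered sham number of 18 pancreatic enzyme probe sets in each day 4 sample, on log axes, with 1 symbol per probe set. The line marks equal numbers. In sample 1, 9 of 18 probe sets lie above the line, in sample 2, 16, and in sample 3, 15.

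Acute-phase genes as a group lay near 0 at day 4, with single members above it. Of 24 positive acute-phase genes, 13 lay above 0, near the 51.0% of all genes, with a median of 0.02, and 4 had an unadjusted p under 0.05, all above 0, against 4.88%. Lbp, which binds bacterial lipopolysaccharide, was at 1.13, 0.87 and 0.40, and Orm1, orosomucoid, at 0.45, 0.33 and 0.39. Both lay above 0 in each sample, and both had higher means at day 2, 1.26 and 1.00, and at day 7, 1.42 and 0.95. Mt2A, a metallothionein, was at 1.47, 0.75 and 0.45, and Apcs, serum amyloid P, at 0.30, 0.46 and 0.24. Serpina1, the trypsin and elastase inhibitor of plasma, was at -0.17 ± 0.19. Of all 24, 6 lay below their day 2 samples without overlap, against 7.03% of all genes.

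Of 27 complement and coagulation genes, 19 lay above 0, against 51.0% of all genes, with a median of 0.11. C4bpb, a chain of the complement regulator C4BP, was at 0.29, 0.54 and 0.36, near its day 2 mean of 0.41 and its day 7 mean of 0.36. Cfd, factor D, was at 0.95, 0.61 and 0.18. Masp1, a protease of the lectin pathway, had probe sets at -1.89, 0.03 and -0.01, so its gene mean of -0.62 ± 0.34 rests on 1 of 3. Carrier proteins whose genes fall in acute-phase responses were near 0, with 6 of 14 above 0, a median of -0.03, albumin (Alb) at -0.22 ± 0.24 and Apoa4 at -0.58 ± 0.37.

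Interleukin and STAT3 signalling genes lay on both sides, with 15 of 28 above 0, near the 51.0% of all genes. At an unadjusted p under 0.05, 3 lay above 0, against 4.88%, and 6 below, against 3.93%. Stat3, the transcription factor downstream of interleukin-6, was at 0.85, 1.03 and -0.02. Nfkbia, the inhibitor of NF-kB and its target, was at 0.61, 2.08 and 0.73, and Junb, an immediate early factor, at 1.20, 1.25 and -0.32. Sample 3 was the lowest for Stat3 and Junb. Socs1, a feedback inhibitor, had a mean of 0.82 ± 0.37, and -0.07 at its brightest probe set alone. Cish, a feedback inhibitor in growth hormone signalling, was at -0.71, -3.46 and -3.38, with a mean of -2.52 ± 1.57.

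The growth hormone and insulin-like growth factor axis had Ghr, the growth hormone receptor, at -0.30, -0.61 and -0.01, and Insr, the insulin receptor, at -0.08, -0.79 and -0.70. Both had day 2 and day 7 means above 0, of 0.30 and 0.31 for Ghr and of 0.71 and 0.60 for Insr. Over the 16 genes of the axis, 6 lay above 0 and the median was -0.03, with Igfbp1 as the highest value.

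The clock is a feedback loop of transcription factors with daily rhythm in most tissues. Its list had 6 of 18 genes above 0, against 51.0% of all genes, and a median of -0.36, at -0.38, -0.11 and -0.41. Without sample 1 it was -0.20, and without the dimmest probe sets, which hold 10 of its 28, it was -0.17. Bhlhe40, a repressor of the loop, was at -1.08, -0.47 and -0.55, Csnk1e, a kinase that marks PER proteins, at -0.36, -0.72 and -0.85, and Nr1d2, a nuclear receptor of the loop, at -0.41, -0.53 and -0.83. All 3 genes were low in every sample and had means above 0 at days 2 and 7. Clock itself was at -0.32 ± 0.26, and Nfil3, a repressor of output genes, was above 0 at 0.31, 0.52 and 0.76. The E box CACGTG was in 3 of 15 promoters of the list, against 5.59% of all promoters, and the D box TTATGTAA in 1 of 15, against 0.828%. The hour of sampling is not given in the labels.

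Among liver transcription factors and bile acid genes, 9 of 27 lay above 0, against 51.0% of all genes. Their median was -0.14, or -0.045 without sample 1 and -0.22 without sample 3. Onecut1, a factor of liver and pancreas development, was at -0.75, -1.96 and -1.95, and Foxa2, a pioneer factor of the same tissues, at -0.35, -1.39 and -0.99. Both were low in all samples, and both had day 2 and day 7 means below 0 as well. Nr0b2, the repressor SHP of bile acid synthesis, was at 0.13, 1.15 and 2.89, and Cyp8b1, which makes cholic acid, at -0.38, -0.30 and -0.38.

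Drug-metabolising enzymes were near 0. Of 30 cytochrome P450 genes with their receptors, 11 lay above 0, against 51.0% of all genes, with a median of -0.03. Ahr, the receptor for dioxin-like compounds, was at -0.39, -0.39 and -0.64, beside 0.40 at day 2 and at day 7. Of 24 conjugating enzymes, 8 lay above 0, against 51.0% of all genes, with a median of -0.04. Gstt2, a glutathione transferase, was at 0.72, 0.80 and 0.31, and Sult2a1, a hydroxysteroid sulfotransferase, at -1.10, -0.10 and -2.80.

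Among stress genes, 24 of 41 heat shock and chaperone genes lay above 0, with a median of 0.04. Hspe1, the mitochondrial chaperonin lid, was at 0.35, 0.41 and 0.48, and Hspb1, a small heat shock protein, at 2.54, 1.60 and -0.65. Hspe1 repeated closely and Hspb1 did not. Xbp1, the transcription factor of the unfolded protein response, was at -0.59, -0.99 and -0.27. Antioxidant genes had 15 of 25 above 0, against 51.0% of all genes, and 5 at an unadjusted p under 0.05, against 4.88%. Their median of 0.15 was 0.070 without the dimmest probe sets and 0.077 without sample 2. Txn1, thioredoxin, was at 0.40, 0.56 and 0.42, Hmox2, the constitutive heme oxygenase, at 0.36, 0.46 and 0.42, and Prdx5, a peroxiredoxin, at 0.80, 0.55 and 0.20. Nfe2l2, the factor that induces many antioxidant genes, was at -0.28 ± 0.29.

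Of 35 cell cycle genes, 10 lay above 0, against 51.0% of all genes, with a median of -0.09. Beside Cdk1 and Cdkn3, Top2a, the topoisomerase of dividing cells, was at -1.11, -0.73 and 0.07, and Mcm7, a replication helicase subunit, was at -0.06, 0.72 and 1.82.

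Markers of cells that a tissue sample can hold gave few groups with 1 direction. Of 13 macrophage genes, 12 lay above 0, against 51.0% of all genes, and 8 in all 3 samples, against 18.3%. Their median was 0.19, at 0.16, 0.38 and 0.11, and Tyrobp, an adaptor of myeloid receptors, was at 0.59, 0.72 and 0.41. Of 7 red cell genes, 6 lay above 0, against 51.0% of all genes, with a median of 0.57, or 0.38 without sample 1. Hbb, a globin, was at 0.81, 0.47 and 0.49. The platelet chemokine Pf4 was at 0.95, 1.15 and 0.61, while 2 of 4 platelet genes lay above 0. S100a9, a neutrophil protein, was at 1.02, 2.14 and 0.71, and 4 of 8 neutrophil genes lay above 0. Of 31 genes of stellate cells, fibroblasts and matrix, 11 lay above 0, against 51.0% of all genes, and 11 were below 0 in all 3 samples, against 16.2%. Among the latter were Lrat, which stores retinol, at -0.50 ± 0.33, Pdgfra, a fibroblast receptor, at -0.45 ± 0.11, and Lox, which crosslinks collagen, at -1.12 ± 0.46. Others of this list, Sparc at 0.45, 0.59 and 0.04, Mmp14, Vim and Pcolce, were above 0 in all 3 samples. Hepatocyte markers had 5 of 14 above 0, with a median of -0.08. The part of any of these cells in the results above was not tested.

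Day 4 was also set against day 2 and day 7 gene by gene. No gene passed an adjusted p of 0.05 in either comparison (0.0% called in both), with smallest adjusted p of 0.112 and 0.162. At an unadjusted p under 0.05, 379 genes lay higher (3.64%) and 411 lower (3.95%) at day 4 than at day 2, and 669 lay higher (6.43%) and 548 lower (5.26%) than at day 7. Pnliprp1 had the smallest p above day 2, with a difference of 3.72 ± 0.39 (SE), followed by Ciao3, an iron-sulfur assembly factor, at 2.23 ± 0.26, and Hpse, heparanase, at 1.90 ± 0.36. Ccdc77 and Eva1c complete the 5, with 1.77 and 2.24. Pnliprp1, Hpse and Eva1c were among the dimmest 5288 probe sets.

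The genes lying lowest against day 2 were Mcpt10, a mast cell protease, Angptl2, a secreted angiopoietin-like protein, Dusp1, the phosphatase that turns off stress kinases, Apob and Sqle. The 2 probe sets of Apob had means of 1.28 and 0.12 at day 2, against -0.80 and -0.04 at day 4. Mcpt10 was at 2.46, 3.69 and 3.66 at day 2 and at -1.50, -3.30 and -0.32 at day 4, a difference of -4.98 ± 0.73 (SE) with a limma adjusted p of 0.241. With brightness of 5.39 and 8.93, Mcpt10 and Angptl2 were among the dimmest 5288 probe sets. Dusp1, which glucocorticoids induce, was at 0.73, 1.41 and 1.96 at day 2 and at -0.79, -0.88 and -1.07 at day 4. Angptl2 was at 1.19, 1.56 and 1.40 at day 2 and at -1.92, -1.45 and -0.40 at day 4. In each of these genes no day 4 sample reached the day 2 values.

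Against day 7 the 5 genes of smallest p above were Ndufa7, Bhlha15, Nrap, a muscle actin-binding protein, Dmap1, a chromatin factor, and Gstm2, a glutathione transferase. Bhlha15, Nrap and Dmap1 were among the dimmest 5288 probe sets. Gstm2 was at 0.00, -0.14 and 0.07 at day 4 and at -0.97, -1.07 and -1.05 at day 7, so the day 7 values made its difference. The 5 below were Apob, Ptafr, the receptor for platelet-activating factor, Bag6, Lrrc51 and Epo. Ptafr, Epo and a probe set of Lrrc51 were among the dimmest 5288. Apob was at 0.76, 0.77 and 1.05 at day 7 and its difference was -1.28 ± 0.17 (SE), with a limma adjusted p of 0.162. Its probe sets had means of 1.56 and 0.17 at day 7, against -0.80 and -0.04 at day 4. Most of the Apob difference thus came from the first, the dimmer of them. Ptafr was at 2.30, 1.61 and 1.93 at day 7 and at -0.65, -0.14 and -1.38 at day 4. The comparisons with day 2 and with day 7 share the 3 day 4 samples.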

How the data were processed

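The unit of the deposited values is log2, as a ratio of an injury and a sham array signal, 1 per probe set and sample, per the labels and the values. Left as not given in the sources used here were the authors' array scaling, their software and the genome build of the design. Of 15923 probe sets, 57 controls were left out. Arrays were centred on their medians, which at day 4 ran from -0.06 to -0.02. The platform's annotation gave 12783 probe sets 1 symbol, 312 several and 2771 none. Probe sets of 1 symbol were averaged into 10411 genes, 1868 with over 1 probe set. RefSeq's GRCr8 table held the gene IDs of 12748 probe sets and changed 0 symbols.

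Ratios were also split by continued fractions into their 2 whole-number signals (tolerance 1e-09, numbers up to 20000). At day 4, 94.2% to 94.7% of ratios could be split, and 12.6% to 12.9% of randomly shifted values could. With numbers up to 3000 the shares were 66.4% to 68.7% and 0.207% to 0.314%. Brightness is the log2 of the smaller signal, taken as a median over days 2, 4 and 7.

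The test was limma 3.58.1 under R 4.3.3, with lmFit and eBayes on the 9 arrays of days 2, 4 and 7 and a mean per day, which leaves 6 residual degrees of freedom. Adjustment was by Benjamini-Hochberg over all genes with a threshold of 0.05. Day 1 stayed out because its identifiers do not follow those of the other days. The script was tested on simulated data. With 3 samples an exact sign-flip test cannot go below 0.25, and the number of arrays limits the precision. Samples were not treated as paired by number. Deviations of same-numbered samples from their day means correlated between -0.041 and 0.0001, which showed no pairing but, with 3 samples a day, cannot exclude it. The 44 gene lists, 25 of pathways and 19 of cell markers, and the members described were chosen with earlier results of these data known.

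Genes were named by these rules. They are those past the threshold, the 10 above and the 10 below 0 of smallest p at day 4 with 1 sign in 3 of 3 samples, and the 5 of smallest p in each direction against days 2 and 7. From each pathway list they are up to 4 members of smallest p in the direction of its median and 1 in the other, and every member of the cholesterol and pancreas lists. From each marker list they are up to 3 members. Alternatives were other array sets, no centring, equal spread, array weights, a variance prior following brightness, the brightest probe set, no dim probe sets, a replicate block and leaving out each day 4 sample.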

Additional observations from a re-analysis of the deposited data

Results flagged for a closer look

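The medians of 6 gene lists lay on 1 side of 0 in all 3 day 4 samples and on the other side in all 3 samples of another day. None of these differences between days was tested. The respiratory chain and ATP synthase had a median of 0.32 at day 4 and of -0.28 at day 7, and mitochondrial ribosomal proteins had 0.30 against -0.17. Translation factors had 0.14 against -0.089 at day 7. Cholesterol synthesis had a median of -0.33 at day 4 and of 0.24 at day 2, and fatty acid and triglyceride synthesis had -0.16 against 0.31. The clock list had -0.36 at day 4, or -0.17 without the dimmest probe sets, against 0.25 at day 2 and 0.076 at day 7.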

How the results depend on the processing

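The counts of genes and probe sets passing adjusted p 0.05 in limma were 0 in each comparison. At day 4, 1 gene passed with all 12 arrays (Pnliprp1, adjusted p 0.0222) and 2 with array weights (Pnliprp1 and Zfp37, both 0.0422), with 1 probe set passing with all 12 arrays and 1 with a variance prior following brightness. The setting with all 12 arrays takes in day 1, whose identifiers do not follow those of the other days. Its passes, here and against day 2, therefore carry no weight. Against day 2, 1 gene passed with all 12 arrays (Pnliprp1, 0.0136), 1 with equal spread of each array (Pnliprp1, 0.047), 1 without the dimmest probe sets (Ciao3, 0.0354) and between 0 and 1 when a day 4 sample was left out (Angptl2, 0.0379, without sample 3). Against day 7, 3 genes passed with a variance prior following brightness (Apob 0.0272, Gstm2 and Ndufa7 0.0302). For Apob the difference came mostly from a single probe set. Sample number as a replicate block left 0 genes at day 4, with 899 at an unadjusted p under 0.05, and changed no call, and 0 genes passed with the 3 arrays of day 4 alone. List medians moved by more than the spread of their samples as follows. For mitochondrial ribosomal proteins the median was 0.27 without centring, 0.34 with the brightest probe set of each gene, 0.29 without the dimmest probe sets and 0.26 to 0.28 without a sample. For complement and coagulation it was 0.078 without centring, 0.13 with equal spread, 0.105 without the dimmest probe sets and 0.0897 to 0.12 without a sample. For the tricarboxylic acid cycle it was 0.12, 0.18 and 0.11 in the same settings, 0.22 with the brightest probe set and 0.11 to 0.17 without a sample. For the urea cycle and amino acid catabolism it was -0.033 without centring, -0.032 with the brightest probe set and -0.086 to -0.0048 without a sample. Interleukin and STAT3 genes were at -0.072 with the brightest probe set and at -0.087 to -0.0014 without a sample. The clock was at -0.17 without the dimmest probe sets, and the growth hormone axis at -0.096 to 0.0203 without a sample. Some named genes changed sign, and not only those near 0. Socs1, at 0.82, was at -0.071 with the brightest probe set, Masp1, at -0.62, was at 0.0094 without the dimmest probe sets, and Reg3a was at 0.016 with array weights. When a sample was left out, the values ran from -0.35 to 0.90 for Clps, from -0.53 to 0.12 for Gp2, from -0.073 to 0.034 for Gstm2, from -0.083 to 0.038 for Mvk, from -0.37 to 0.18 for Nr5a2, from -0.25 to 0.0094 for Nsdhl, from -0.54 to 0.52 for Prss2, from -0.26 to 0.93 for Reg1a, from -0.20 to 0.19 for Reg3a, from -0.29 to 0.27 for Reg3g, from -0.0065 to 0.49 for Sycn, from -0.14 to 0.015 for Tm7sf2 and from -0.39 to 0.74 for Zg16. The causes were not tested. Brightness is scored on the smaller signal of a pair, so a large ratio can itself lower it. With that reserve, dim signal limits the pancreatic genes, 12 of the 20 genes of smallest p and several genes named against days 2 and 7, such as Mcpt10 and Ptafr. By contrast, 1 of 25 cholesterol synthesis and 4 of 78 respiratory chain probe sets were among the dimmest.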
